A study of Homo sapiens with 6 samples.

Results

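The genes of the hemidesmosome and of laminin-332 were examined in cultured human keratinocytes: COL17A1, ITGA6, ITGB4, CD151, PLEC, DST, LAMA3, LAMB3 and COL7A1. They were listed by gene symbol, with earlier results of these data known. All 9 were found among the 12829 genes of the expression table. The cells were HaCaT, an immortalised and aneuploid keratinocyte line derived from skin. The 3 knockdown libraries were labelled as IQGAP2 knockdown and came from HaCaT cells carrying the hairpin shIQGAP2, a short RNA directed against the scaffold protein IQGAP2. The 3 control libraries were labelled normal control, with the genotype given as WT. Both groups were grown in DMEM with fetal bovine serum and no further treatment is named. The labels do not say whether the control cells carried a hairpin of their own, how many hairpins were used, or whether the knockdown cells were a clone or a pool.

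Hemidesmosomes rivet the basal side of an epithelial cell to the basement membrane. In keratinocytes the alpha 6 beta 4 integrin and collagen XVII span the membrane, the tetraspanin CD151 associates with the integrin, and the plakins plectin and BPAG1, the epithelial product of DST, link them to keratin filaments. Outside the cell the integrin binds laminin-332, to which LAMA3 and LAMB3 give the alpha 3 and beta 3 chains and which collagen VII anchors to the dermis. Inherited loss of these proteins causes epidermolysis bullosa, in which skin blisters at this layer. HaCaT cells in culture grow on plastic, with no dermis.

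Expression is given as FPKM, fragments per kilobase of gene scaled by depth. Levels of different genes can be set side by side only where the gene length used fits the form expressed. Changes are knockdown minus control in log2(FPKM + 1), a scale that understates the change of low genes, with the standard error and the adjusted p of limma over the 11214 genes that averaged 0.5 FPKM or more. A gene was called at an adjusted p under 0.05. The whole reads behind the values numbered 12901037 to 15360759 per knockdown library and 13957447 to 15122470 per control library. The target, IQGAP2, had 2, 4 and 2 reads in the knockdown libraries and 24, 22 and 21 in the control libraries, so its check rests on few reads. Knockdown replicate 2 stood apart, with a chi-square over degrees of freedom, on reads, of 11.3 and 10.5 against the other knockdown libraries, where the remaining pairs within a group gave 2.10 to 2.49. All 10 keratinocyte markers were in the table, and summed to 6108 to 6713 FPKM in knockdown cells and 5989.9 to 6076 FPKM in control cells, a sum made up largely of KRT14, KRT5 and SFN. Of these 10 markers 7 were called higher and none lower, where 29.5% of all genes tested were called higher and 27.8% lower. The desmosome genes DSG3 and DSP changed by 1.06 and 0.87, with means of 106 and 96.8 FPKM in knockdown cells and 50.3 and 52.4 FPKM in control cells. Of 28 markers of fibroblasts, melanocytes, endothelial, immune, muscle and nerve cells, 10 were in the table, with summed levels of 3.48 to 4.10 FPKM in knockdown cells and 5.94 to 6.36 FPKM in control cells. Their part in the results was not tested. In RNA from whole cultures, a change in RNA per cell and a change in the share of cells that express a gene cannot be told apart.

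Of the 9 genes, 6 were higher in the knockdown cells (COL17A1, ITGA6, PLEC, LAMA3, LAMB3 and DST), none was called lower, and ITGB4, CD151 and COL7A1 were not called. At an unadjusted p under 0.05 in limma, and with voom on the recovered reads, the counts were 6 higher and 1 lower, the lower gene being CD151. All 9 genes passed the filter on low values, with at least 4.97 FPKM in every library. Over all genes tested, 57.4% were called, 29.5% as higher and 27.8% as lower, so that a call by itself was common in these libraries. The median change was 0.31 over the 9 genes and 0.0080 over all genes, whose 5th and 95th percentiles were -0.58 and 0.57. COL17A1, ITGA6, PLEC and LAMA3 lay above that 95th percentile, while LAMB3 and DST lay within the range. Knockdown and control libraries did not overlap for 7 of the 9 genes, 6 with every knockdown library above and 1 below, against 65.1% of all genes tested and 33.7% with every knockdown library above. The 9 genes made up 0.794% to 0.839% of recovered reads in knockdown libraries, against 0.568% to 0.582% in control libraries.

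**Figure D1:**
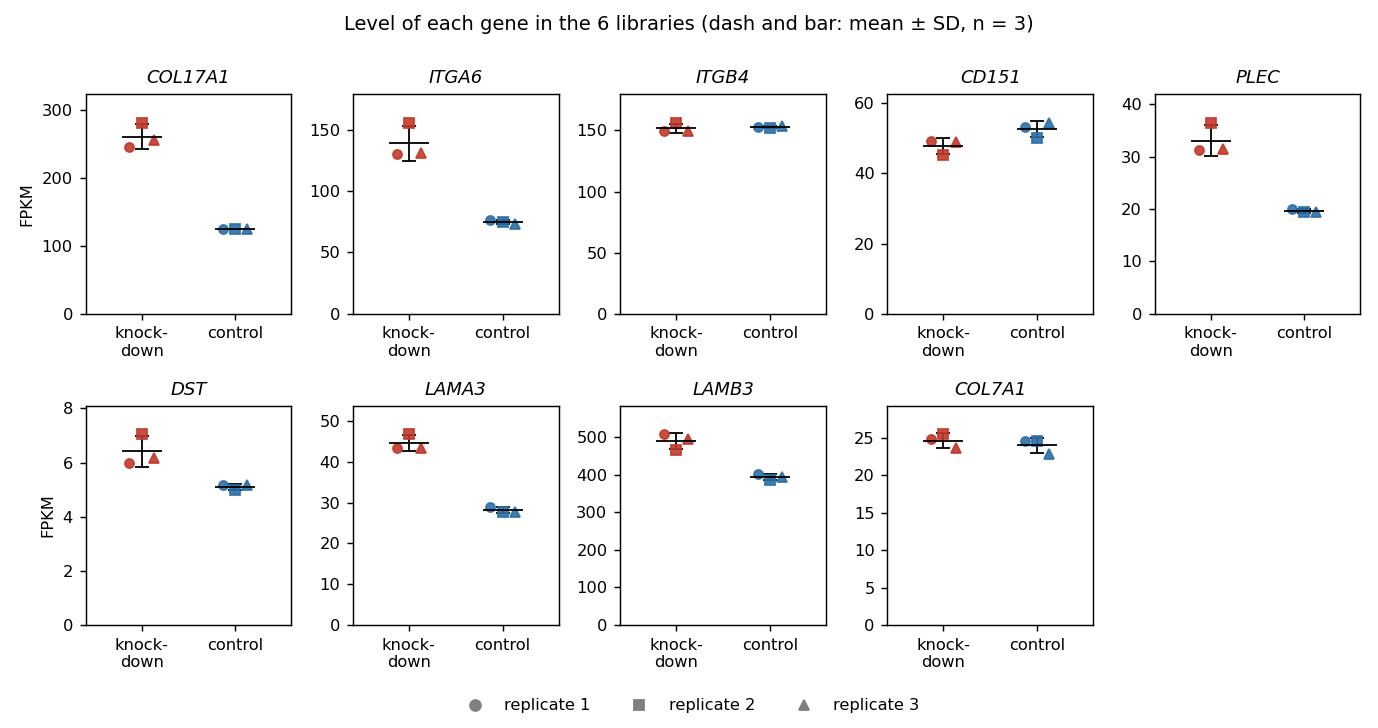
FPKM of each hemidesmosome, laminin-332 and collagen VII gene in every library; each panel is a gene with its own linear axis from 0, points are libraries (circle, square and triangle for replicates 1, 2 and 3), knockdown left of control, with the mean ± SD (n = 3). COL17A1, ITGA6, PLEC, LAMA3, LAMB3 and DST lie higher in all 3 knockdown libraries, whereas ITGB4 and COL7A1 overlap.

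The sequence before the annotated start is shown for 5 of these genes, the 4 membrane and laminin genes that moved and COL7A1, which was not called, so that the starts behind different responses can be read side by side. RefSeq starts on GRCh38.p14 were matched for 6 of the 9 genes, with 11 starts in all; another start of ITGA6, another of LAMB3 and those of DST are not printed. Each line gives the 250 bases before a start, 5′ to 3′ on the strand of the gene, and capitals mark motif matches on either strand. COL17A1 is at chr10:104085881-104086130 (minus strand), ITGA6 at chr2:172427336-172427585 (plus), LAMA3 at chr18:23872770-23873019 (plus), LAMB3 at chr1:209652426-209652675 and chr1:209651375-209651624 (minus), and COL7A1 at chr3:48595330-48595579 (minus).
COL17A1: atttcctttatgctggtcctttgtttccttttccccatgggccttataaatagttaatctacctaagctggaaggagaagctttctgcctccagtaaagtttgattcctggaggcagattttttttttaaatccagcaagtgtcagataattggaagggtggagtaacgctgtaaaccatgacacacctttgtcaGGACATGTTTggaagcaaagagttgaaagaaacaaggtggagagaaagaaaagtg
ITGA6: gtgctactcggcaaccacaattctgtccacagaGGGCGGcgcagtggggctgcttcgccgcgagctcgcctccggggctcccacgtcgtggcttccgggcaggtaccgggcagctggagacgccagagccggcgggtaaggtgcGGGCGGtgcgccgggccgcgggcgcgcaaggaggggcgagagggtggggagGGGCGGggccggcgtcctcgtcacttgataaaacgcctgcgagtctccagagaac
LAMA3: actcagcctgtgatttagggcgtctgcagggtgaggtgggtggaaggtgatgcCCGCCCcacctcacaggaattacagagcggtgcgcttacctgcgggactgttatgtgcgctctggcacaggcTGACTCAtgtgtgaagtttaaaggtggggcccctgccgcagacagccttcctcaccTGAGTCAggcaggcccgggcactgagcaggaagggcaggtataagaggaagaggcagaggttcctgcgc
LAMB3, outer start: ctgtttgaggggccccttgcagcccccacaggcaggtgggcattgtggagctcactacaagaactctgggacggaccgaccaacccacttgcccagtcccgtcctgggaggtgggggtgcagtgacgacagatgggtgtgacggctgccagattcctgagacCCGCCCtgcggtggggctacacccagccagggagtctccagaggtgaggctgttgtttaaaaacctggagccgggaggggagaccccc
LAMB3, inner start: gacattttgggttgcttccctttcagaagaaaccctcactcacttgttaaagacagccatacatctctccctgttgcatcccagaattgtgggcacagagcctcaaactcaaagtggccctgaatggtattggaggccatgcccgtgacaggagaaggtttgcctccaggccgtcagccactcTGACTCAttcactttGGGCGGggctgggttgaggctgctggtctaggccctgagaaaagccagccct
COL7A1: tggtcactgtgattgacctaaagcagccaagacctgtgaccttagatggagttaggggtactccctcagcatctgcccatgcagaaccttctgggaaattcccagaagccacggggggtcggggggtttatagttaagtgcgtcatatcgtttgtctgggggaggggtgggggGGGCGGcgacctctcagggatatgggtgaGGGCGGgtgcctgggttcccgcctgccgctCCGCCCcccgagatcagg

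The motifs searched, on both strands of the 300 bases made of these 250 and the 50 after the start, were AP-1 (TGANTCA), TEAD (GGAATG), SP/KLF (GGGCGG), an E-box (CACGTG) and the p63 consensus. AP-1 matched 2 times before the LAMA3 start, beginning at -125 and -69, and once before the inner LAMB3 start, at -67. It was found in 7.71% of 35116 promoters of the same length. The p63 consensus, whose letters are not given here, matched once before the COL17A1 start, at -55, and in 6.63% of promoters. The COL17A1 match is the short run GGACATGTTT alone, and whether it makes a whole p63 site was not tested. SP/KLF matched 3 times before this ITGA6 start, 3 times before COL7A1, and once before LAMA3 and before each LAMB3 start shown, and it was found in 45% of promoters. The E-box and TEAD motifs, with 7.26% and 14% of promoters, matched in none of these 6 windows. The ITGA6 start that is not printed, at 172427336, has an E-box at -101 and an SP/KLF match, and the LAMB3 start not printed, at 209652329, lies near the outer one and its window holds the same SP/KLF match. DST has 3 starts in the table, and matches of AP-1, TEAD, SP/KLF and the E-box lay only in the most upstream window. No 2 of the matches shown overlapped, and a match is a run of letters, not evidence of binding.

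COL17A1 (ENSG00000065618, GRCh38 chromosome 10, 104031286 to 104085957, minus strand) encodes collagen XVII, the transmembrane collagen of the hemidesmosome and an autoantigen of bullous pemphigoid. It had the largest change of the 9 genes. Its level was 245, 281 and 255 FPKM in knockdown libraries 1, 2 and 3, against 125, 124 and 124 FPKM in control libraries 1, 2 and 3. The groups were far apart, and the control libraries were almost equal. The mean was 260 ± 18.5 FPKM in knockdown cells and 125 ± 0.268 FPKM in control cells (SD, n = 3 each), a 2.09-fold ratio. The log2 change was 1.05 (SE 0.055, limma adjusted p = 4.64e-07), and 77 of the 11214 genes tested had a larger rise. Among all genes in the table COL17A1 ranked 98th by level in knockdown cells and 258th in control cells.

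ITGA6 (ENSG00000091409, chromosome 2, 172427354 to 172506282, plus strand) encodes the alpha 6 integrin chain, which pairs with beta 4 in hemidesmosomes and can also pair with beta 1. Its level was 130, 155 and 131 FPKM in the knockdown libraries, against 76.1, 74.8 and 73.1 FPKM in the control libraries. Every knockdown library was above every control library, and knockdown replicate 2 was the highest. The means were 139 ± 14.3 FPKM in knockdown cells and 74.7 ± 1.51 FPKM in control cells, and the log2 change was 0.88 (SE 0.067, limma adjusted p = 4.86e-06). Its exons share 351 bases with antisense genes, and whether reads were counted by strand is not given in the sources used here.

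ITGB4 (ENSG00000132470, chromosome 17, 75721328 to 75757818, plus strand) encodes the beta 4 chain, whose long tail recruits plectin. In contrast to its partner it was not called. It had 149.8, 156 and 149.9 FPKM in the knockdown libraries, against 153, 152 and 153 FPKM in the control libraries. These ranges overlapped. The log2 change was -0.0088 with a 95% interval of -0.10 to 0.086 (limma adjusted p = 0.872). With every library rescaled to a common FPKM sum, ITGB4 was called higher (0.16, adjusted p = 0.0149, range over 18 alternatives 0.0149 to 0.991), a scaling under which the median change of all genes was 0.14.

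CD151 (ENSG00000177697, chromosome 11, 832843 to 839831, plus strand) encodes the tetraspanin of hemidesmosomes. Its level was 49.3, 45.1 and 49.0 FPKM in the knockdown libraries, against 53.2, 49.9 and 54.3 FPKM in the control libraries. All knockdown libraries were below all control libraries, by little: the highest knockdown value was just under the lowest control value. The log2 change was -0.13 (SE 0.053, 95% interval -0.25 to -0.015, limma adjusted p = 0.0534) and missed the threshold. Without control replicate 2 the difference passed (-0.17, adjusted p = 0.0441), and over 18 alternatives the adjusted p ran from 0.0404 to 0.6. CD151 shares 257 exon bases with POLR2L on the opposite strand, so some of its reads may belong there.

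**Figure D2:**
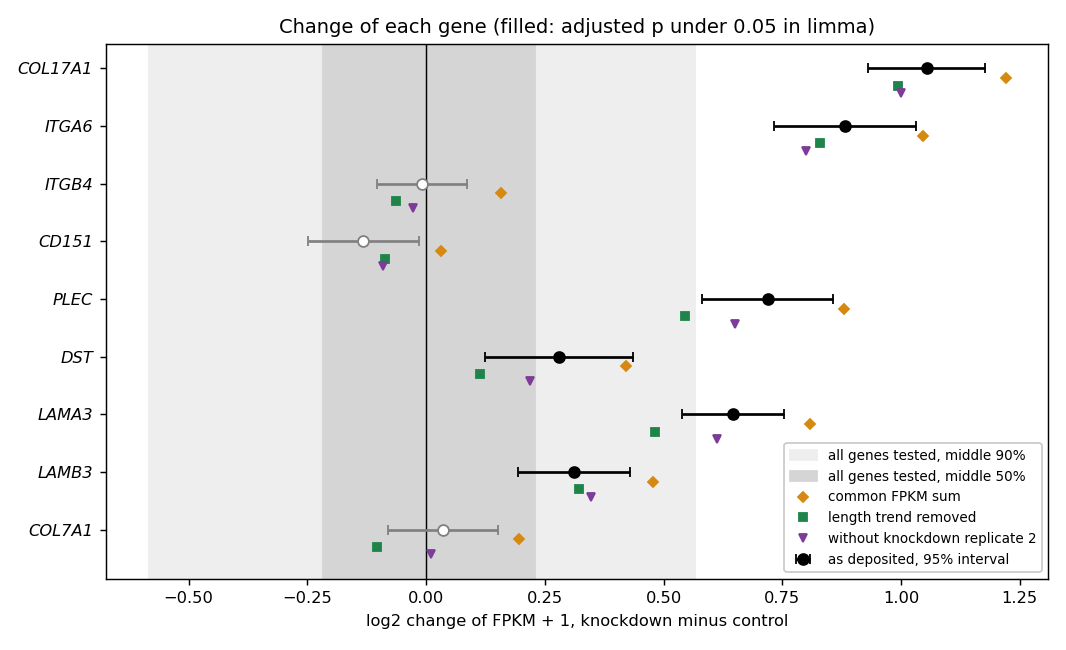
Log2 change of FPKM + 1, knockdown minus control, with 95% limma intervals for the 9 genes (circles, filled where called); other symbols give the change with a common FPKM sum, with the length trend removed and without knockdown replicate 2, and bands hold the middle 50% and 90% of all genes tested. The intervals of COL17A1, ITGA6, PLEC and LAMA3 lie near or above the 95th percentile of all genes, 0.57, while those of ITGB4 and COL7A1 include 0.

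Both plakin genes were higher, by unequal amounts. PLEC (ENSG00000178209, chromosome 8, 143915147 to 143976734, minus strand) encodes plectin, the cytolinker that joins beta 4 to keratins. It had 31.4, 36.5 and 31.5 FPKM in the knockdown libraries, against 20.1, 19.4 and 19.5 FPKM in the control libraries. Knockdown replicate 2 was again the highest, and the groups were well apart. The means were 33.1 ± 2.93 FPKM in knockdown cells and 19.7 ± 0.375 FPKM in control cells, with a log2 change of 0.72 (SE 0.062, limma adjusted p = 1.1e-05).

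DST (ENSG00000151914, chromosome 6, 56457987 to 56954628, minus strand) encodes dystonin, a giant gene with epithelial, neuronal and muscle forms. Its level was 6.0, 7.05 and 6.19 FPKM in the knockdown libraries, against 5.16, 4.97 and 5.17 FPKM in the control libraries. The groups did not overlap, and knockdown replicate 2 was the highest. The log2 change was 0.28 (SE 0.070, limma adjusted p = 0.00657). With the trend over gene length removed the call was lost (0.11, adjusted p = 0.134), as it was with trends over length and GC content removed (0.072, adjusted p = 0.318, the highest over 18 alternatives, with 0.00028 the lowest). DST has 18 coding transcripts with 17 starts, and the value was divided by a length of 48142 bases, so the epithelial form cannot be told apart and its FPKM is not comparable with those of the other genes.

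The laminin-332 genes LAMA3 and LAMB3 were both higher in the knockdown cells. LAMA3 (ENSG00000053747, chromosome 18, 23689443 to 23956222, plus strand) encodes the alpha 3 chain, which carries the integrin-binding domains. It had 43.5, 46.8 and 43.4 FPKM in the knockdown libraries, against 28.9, 27.6 and 27.8 FPKM in the control libraries. The groups were far apart, with means of 44.6 ± 1.92 FPKM in knockdown cells and 28.1 ± 0.727 FPKM in control cells and a log2 change of 0.65 (SE 0.048, limma adjusted p = 4.53e-06). The gene also makes a longer form, and the start whose sequence is shown is that of the shorter one, but the values are for the gene as a whole.

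LAMB3 (ENSG00000196878, chromosome 1, 209614870 to 209652466, minus strand) encodes the beta 3 chain and was the most abundant of the 9 genes in both groups. It had 509, 467 and 496 FPKM in the knockdown libraries, against 403, 386 and 395 FPKM in the control libraries. Here knockdown replicate 2 was the lowest of its group and nearest to the controls. The log2 change was 0.31 (SE 0.053, limma adjusted p = 0.000668).

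COL7A1 (ENSG00000114270, chromosome 3, 48564073 to 48595267, minus strand) encodes collagen VII of the anchoring fibrils. It had 24.8, 25.5 and 23.6 FPKM in the knockdown libraries, against 24.5, 24.6 and 22.8 FPKM in the control libraries. The ranges overlapped in part, with the highest value in a knockdown library and the lowest in a control library. The log2 change was 0.035 (SE 0.052, 95% interval -0.080 to 0.15, limma adjusted p = 0.581). It was called higher with a common FPKM sum (0.20, adjusted p = 0.0162, range over 18 alternatives 0.0162 to 0.991), where the median of all genes was 0.14. Of the collagens of this junction the transmembrane one was higher and the anchoring-fibril one was not called.

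Ratios of partners within a library were compared for 6 pairs. Such ratios do not depend on a factor common to a library, though they can depend on gene length and GC content. The ratio of ITGA6 to ITGB4 was 0.870, 0.995 and 0.873 in the knockdown libraries, against 0.497, 0.492 and 0.477 in the control libraries. In FPKM, ITGA6 was thus close to ITGB4 in the knockdown cells and well below it in the control cells, with a 1.87-fold difference between the groups. The difference between the log2 changes of ITGA6 and ITGB4, 0.89, was 0.69 with length and GC trends removed. The ratio of LAMA3 to LAMB3 was 0.0855, 0.10 and 0.0876 in the knockdown libraries, against 0.0718, 0.0714 and 0.0704 in the control libraries, a 1.28-fold difference. LAMA3 has a length of 14488 bases and LAMB3 of 4647, and the difference between their log2 changes, 0.33, was 0.16 with the length trend removed, 0.11 with length and GC trends removed and 0.13 with quantile normalization. In FPKM, LAMA3 was far below LAMB3 in both groups. Its value was divided by the 14488 bases of the gene as a whole, so the level of its shorter form cannot be told. The ratio of DST to PLEC was 0.191, 0.193 and 0.197 in the knockdown libraries, against 0.257, 0.256 and 0.265 in the control libraries. It was lower in every knockdown library than in any control library, and the difference between the log2 changes, -0.44, was -0.67 with length and GC trends removed.

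The ratio of COL17A1 to COL7A1 was 9.86, 11 and 10.8 in the knockdown libraries, against 5.09, 5.05 and 5.45 in the control libraries. That of COL17A1 to ITGB4 was 1.63, 1.80 and 1.70 in the knockdown libraries, against 0.816, 0.817 and 0.812 in the control libraries. That of LAMA3 to COL7A1 was 1.75, 1.84 and 1.84 in the knockdown libraries, against 1.18, 1.12 and 1.22 in the control libraries. The difference between the log2 changes of LAMA3 and COL7A1, 0.61, was 0.47 with length and GC trends removed. The groups did not overlap for any of the 6 ratios. Each gave p = 0.1 in an exact two-sided permutation test, also after adjustment over the 6, and this is the smallest p that 3 libraries against 3 allow, so none could pass 0.05.

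**Figure D3:**
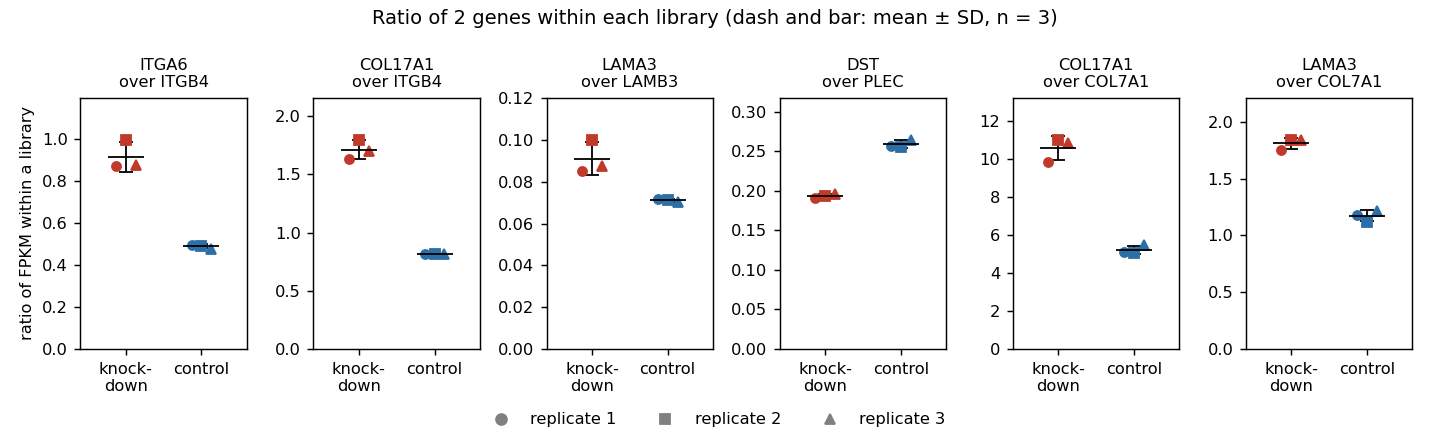
Ratio of FPKM between partners within each library for the 6 pairs compared, on linear axes from 0; points are libraries by replicate, knockdown left of control, with the mean ± SD (n = 3). None of these ratios overlaps between groups: ITGA6 over ITGB4 is 0.870 to 0.995 in knockdown and 0.477 to 0.497 in control libraries.

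The order of levels changed between the groups. From the highest to the lowest, the knockdown order was LAMB3, COL17A1, ITGB4, ITGA6, CD151, LAMA3, PLEC, COL7A1 and DST. The control order was LAMB3, ITGB4, COL17A1, ITGA6, CD151, LAMA3, COL7A1, PLEC and DST. COL17A1 thus stood above ITGB4 in the knockdown cells and below it in the control cells, and PLEC likewise passed COL7A1. In the knockdown cells the ranges of the neighbours ITGB4 and ITGA6 overlapped, as did those of CD151 and LAMA3. No neighbours overlapped in the control cells. The last place of DST rests on its uncertain length, and the place of LAMA3 on the length of the gene as a whole.

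Over all genes, the change moved with gene length, and knockdown replicate 2 departed from the other knockdown libraries along the same axis. In 10 bins of equal gene number by length, the median change ran from -0.19 in the shortest to 0.17 in the longest genes, and the median of knockdown replicate 2 minus the mean of replicates 1 and 3 from -0.14 to 0.11. COL17A1, ITGA6 and ITGB4 had nearly equal lengths of 6989, 6679 and 6761 bases and lay in the same bin, whose median change was 0.051. Their changes were 1.05, 0.88 and -0.0088. PLEC, LAMA3, DST and COL7A1 lay in the bin of the longest genes, and the changes of PLEC and LAMA3, 0.72 and 0.65, were well above its median of 0.17, DST at 0.28 was nearer to it, and COL7A1 at 0.035 was below it. Knockdown replicate 2 exceeded the other knockdown libraries by 0.25 for ITGA6, 0.21 for PLEC, 0.18 for DST and 0.17 for COL17A1 on the log2 scale, and was below them by a difference of -0.10 for LAMB3 and -0.12 for CD151. Without that library 6 of the 9 genes were again called higher, against 29% of all genes; with the length trend removed 5 were, against 28.4%.

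**Figure D4:**
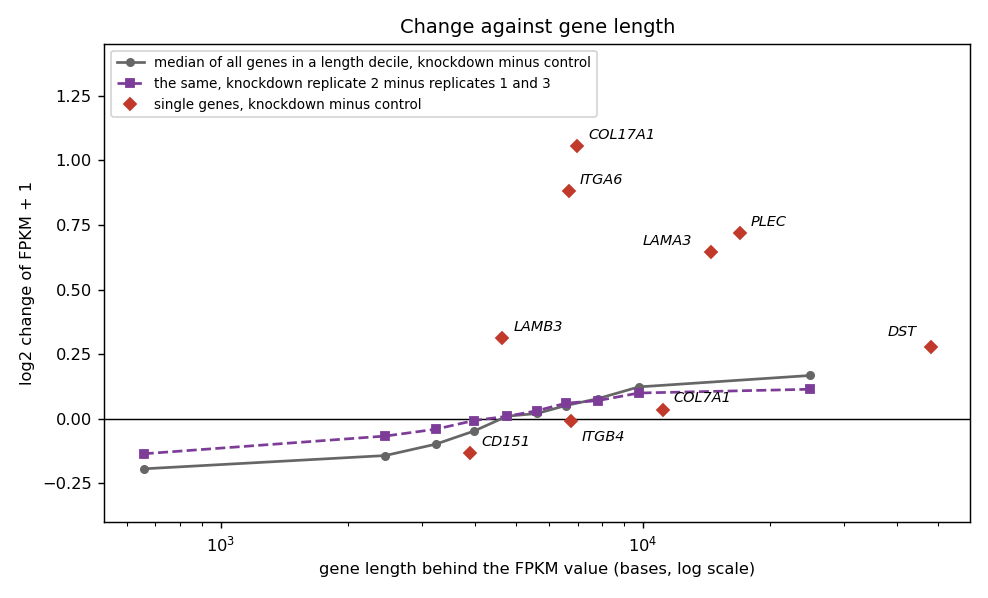
Log2 change of FPKM + 1, knockdown minus control, against gene length in bases on a log axis for the 9 genes (diamonds), with medians of all genes in 10 bins of length (circles) and of knockdown replicate 2 minus replicates 1 and 3 (squares). The medians run from -0.19 to 0.17, while genes of nearly equal length such as COL17A1 and ITGB4 lie at 1.05 and -0.0088.

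Genes around the junction were followed in 9 lists of 104 partner genes, of which 87 were tested: 33 were higher, 27 lower and 27 not called. The share of the 87 called higher was 37.9%, against 29.5% of all genes, and the median change was 0.042. Of the 4 other laminin chains tested, only LAMC1 was called, and the median change was 0.029. With a common FPKM sum 3 chains were higher, where 43.4% of all genes were called higher. With the length trend removed 1 was higher and 2 were lower (median -0.082). Removal of length and GC trends left 1 higher and 1 lower. LAMC1 averaged 65.1 ± 7.37 FPKM in knockdown cells and 52.2 ± 1.30 FPKM in control cells (0.31). LAMC1 is the gamma chain of most laminins outside the hemidesmosome. LAMA5, LAMB1 and LAMB2 were not called. Among 11 other basement membrane genes 4 were higher and 5 lower, with a median of 0.17. All genes tested had shares of 29.5% higher and 27.8% lower. COL4A2, a chain of collagen IV, fell to 10.4 ± 0.602 FPKM in knockdown libraries, against 15.6 ± 0.387 FPKM in control libraries (-0.54). NID1, which bridges laminin and collagen IV networks, averaged 1.82 ± 0.0926 FPKM in knockdown cells and 2.91 ± 0.113 FPKM in control cells (-0.47). ECM1, a secreted protein of the skin, was higher, at 17.2 ± 1.79 FPKM in knockdown cells and 12.6 ± 0.229 FPKM in control cells (0.42). The adjusted p of LAMC1, COL4A2, NID1 and ECM1 in limma was at most 0.00428. With a common FPKM sum 6 of the 11 basement membrane genes were higher and 2 lower, beside the 43.4% of all genes called higher.

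Of 7 other laminin receptors 4 were higher and none was called lower, with a median of 0.15, where 29.5% of all genes were higher. With the length trend removed 4 of these receptors were higher and 2 lower. With a common FPKM sum 6 were higher and none lower, where 43.4% of all genes were called higher. The integrin chains ITGA3 and ITGB1, which form the laminin receptor outside hemidesmosomes, were not called and had changes of -0.039 and -0.12. ITGA3 was called higher with a common FPKM sum and lower with the length trend removed (limma adjusted p over 18 alternatives 0.00825 to 0.949). ITGB1 was called lower without knockdown replicate 2 and with the length trend removed, alone or with GC content (adjusted p over 18 alternatives 3.07e-05 to 0.667). The called genes were the syndecans SDC1, SDC4 and SDC3, heparan sulfate proteoglycans of the cell surface, and BCAM. BCAM changed by 0.15 (limma adjusted p = 0.0330) and was not called under 7 of 18 alternatives, 4 of which left out a library (control replicates 1 and 3, knockdown replicates 1 and 3). SDC1 averaged 145 ± 1.1 FPKM in knockdown cells and 94.2 ± 2.72 FPKM in control cells (0.62), and SDC4 248 ± 9.64 FPKM in knockdown cells and 177 ± 3.55 FPKM in control cells (0.49). Of 7 tetraspanin relatives of CD151, 6 were lower and CD82 was not called, with a median of -0.19, where 27.8% of all genes were lower. Only 3 were lower with a common FPKM sum, and 4 with quantile normalization or the replicate block. TSPAN15 averaged 30.4 ± 2.15 FPKM in knockdown cells and 51.4 ± 1.72 FPKM in control cells (-0.74). CD81, a widely expressed tetraspanin, averaged 26.9 ± 2.61 FPKM in knockdown cells and 37.2 ± 0.371 FPKM in control cells (-0.46). TSPAN4 and SDC3 changed by -0.49 and 0.45. The adjusted p of SDC1, SDC4, SDC3, TSPAN15, CD81 and TSPAN4 in limma was at most 0.000637.

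Inside the cell, 7 of 11 keratins and adaptors were higher, where 29.5% of all genes were, and 1, EVPL, was lower. The median was 0.33, and EVPL was not called with a common FPKM sum. Taking out the length trend left 5 of the 11 higher and 2 lower (median 0.17), against 28.4% of all genes higher. Leaving out knockdown replicate 2 gave 6 higher and 2 lower (median 0.18), against 29%. Length and GC trends taken out together left 7 higher and 2 lower (median 0.31), and quantile normalization 8 and 2 (median 0.34). A common FPKM sum gave 8 higher (median 0.42), where 43.4% of all genes were called higher. Periplakin (PPL), a plakin of desmosomes and the cornified envelope, averaged 38.5 ± 0.175 FPKM in knockdown cells and 23.4 ± 0.385 FPKM in control cells (0.69, limma adjusted p = 1.28e-06). Its partner envoplakin is the product of EVPL. FERMT1 (kindlin-1), an integrin activator whose loss causes Kindler syndrome, averaged 68.7 ± 5.01 FPKM in knockdown cells and 44.3 ± 0.186 FPKM in control cells (0.62, adjusted p = 1.25e-05). The spectrin gene SPTBN1 changed by 0.67. Of the basal keratins that plectin binds, KRT5 was higher, at 1483 ± 62.8 FPKM in knockdown cells and 1149 ± 3.61 FPKM in control cells (0.37). Its pairing partner KRT14 averaged 2313 ± 190 FPKM in knockdown cells and 2575 ± 62.0 FPKM in control cells and was not called (-0.16, limma adjusted p = 0.117). The value of KRT14 ran from -0.19 to 0.63 over 18 alternatives, of which 1 called it higher and 2 lower; without knockdown replicate 2 it was called lower.

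Genes for enzymes and helpers that act on these proteins were split. Of 10 listed for the cutting of laminin-332, collagen XVII or collagen VII, 3 were higher and 4 lower, with a median of -0.024. The shares of all genes tested were 29.5% higher and 27.8% lower. The list includes enhancers such as PCOLCE2, which do not cut themselves. ADAM17, a sheddase of collagen XVII, averaged 6.67 ± 1.2 FPKM in knockdown cells and 3.95 ± 0.172 FPKM in control cells (0.62). The gelatinase MMP2 averaged 5.75 ± 0.803 FPKM in knockdown cells and 9.45 ± 0.377 FPKM in control cells (-0.64), and PCOLCE2, an enhancer of procollagen processing, changed by -0.51. Of 14 genes for collagen folding and export 4 were higher and 6 lower, with a median of -0.081. With a common FPKM sum 6 were higher and 4 lower, where 43.4% of all genes were called higher. With the length trend removed 2 were higher and 8 lower (median -0.15). Removal of length and GC trends left 4 higher and 7 lower. P4HA1, a prolyl hydroxylase subunit, averaged 79.4 ± 1.36 FPKM in knockdown cells and 53.3 ± 0.782 FPKM in control cells (0.57). COLGALT1, which adds galactose to collagen, averaged 36.7 ± 0.708 FPKM in knockdown cells and 50.4 ± 1.32 FPKM in control cells (-0.45), and the transglutaminase TGM2 changed by -0.61. The adjusted p of these named genes in limma was at most 0.00152.

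Of 11 kinases and phosphatases known to act on hemidesmosomes 5 were higher and 2 lower, with a median of 0.18. Among all genes tested 29.5% were called higher and 27.8% lower. EGFR, whose signalling loosens hemidesmosomes through phosphorylation of beta 4, averaged 49.4 ± 4.90 FPKM in knockdown cells and 29.6 ± 0.842 FPKM in control cells (0.72). The phosphatase PTPN11 averaged 38.6 ± 4.02 FPKM in knockdown cells and 25.5 ± 0.441 FPKM in control cells (0.58), and the kinase PRKCD 5.11 ± 0.622 FPKM in knockdown cells and 8.33 ± 0.0328 FPKM in control cells (-0.62). Of 12 transcription factors known for basal keratinocyte adhesion genes 5 were higher and 3 lower, with a median of 0.10. With a common FPKM sum 9 were higher and 2 lower, where 43.4% of all genes were called higher. TEAD1, a partner of YAP, averaged 10.2 ± 1.29 FPKM in knockdown cells and 5.55 ± 0.202 FPKM in control cells (0.77). KLF5 averaged 123 ± 4.43 FPKM in knockdown cells and 86.2 ± 1.76 FPKM in control cells (0.50). JUN, a subunit of AP-1, averaged 91.7 ± 2.44 FPKM in knockdown cells and 148 ± 3.50 FPKM in control cells (-0.68). The other AP-1 genes of the list were split, with JUNB lower (-0.16, limma adjusted p = 0.0185) and FOSL1 higher (0.48, limma adjusted p = 0.000177). FOSL1 averaged 143 ± 12.7 FPKM in knockdown cells and 102 ± 4.18 FPKM in control cells. TP63, the gene of p63, was higher by 0.17, with 114 ± 5.50 FPKM in knockdown cells and 101 ± 0.98 FPKM in control cells (limma adjusted p = 0.00978), and was not called with length and GC trends removed. The adjusted p of EGFR, PTPN11, PRKCD, TEAD1, KLF5 and JUN in limma was at most 0.000119.

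**Figure D5:**
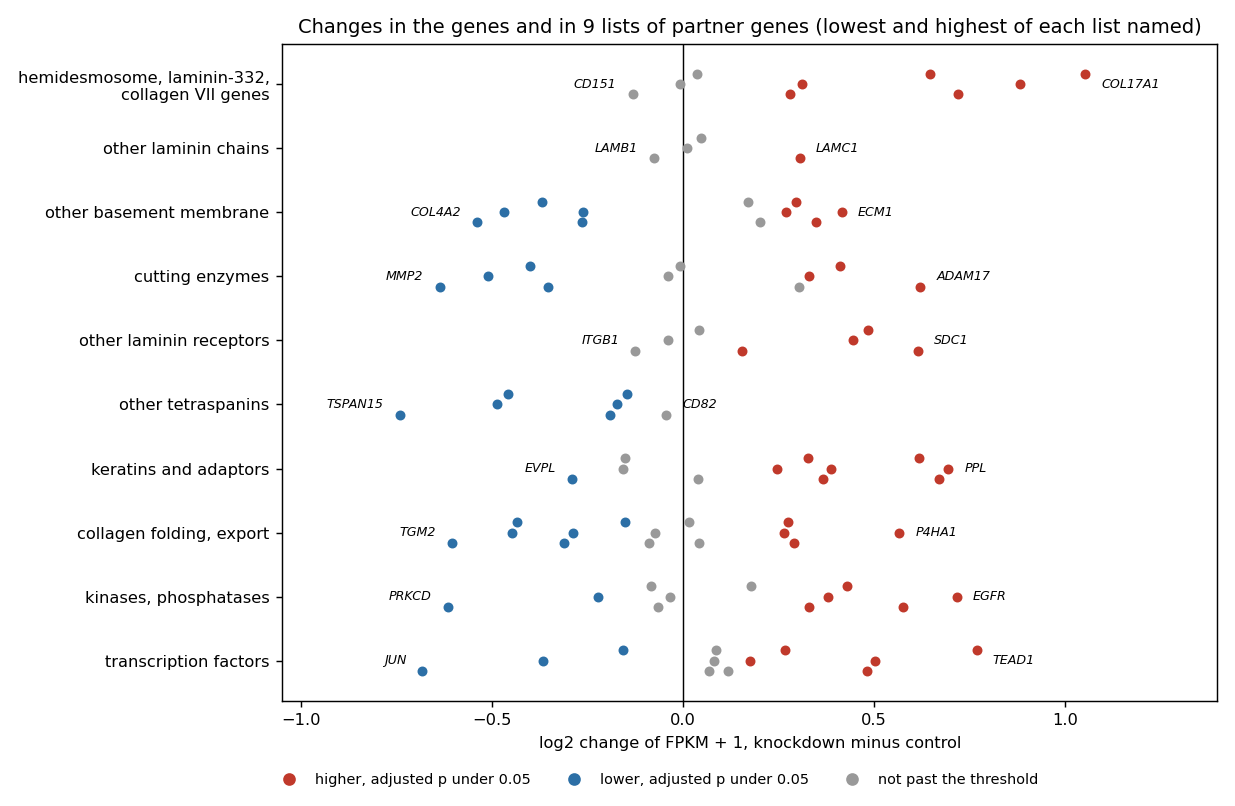
Log2 change of FPKM + 1, knockdown minus control, of the 9 genes (top row) and of 9 lists of partner genes; each point is a gene, coloured by its limma call, and the lowest and highest gene of each row is named. COL17A1 at 1.05 and ITGA6 at 0.88 lie beyond the highest partner gene, TEAD1 at 0.77, and TSPAN15 at -0.74 is the lowest partner gene.

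The genes whose pattern lay nearest to the median pattern of the 9 genes were sought among 6833 others that averaged 5 FPKM or more, by the root mean square difference of log2 values over the 6 libraries. CEBPZ was nearest (0.0183), followed by HMGN4 (0.0190), TLE1 (0.0212), POLR2A (0.0232) and BTG2 (0.0239). Their changes, 0.35 to 0.37, were close to this median pattern because the genes were chosen for that. The pattern stood at 0.37, 0.40 and 0.33 above the control mean in knockdown libraries 1, 2 and 3. The changes of these genes were above the median change of the 9 genes, 0.31, and well below those of COL17A1 and ITGA6. TLE1 is a transcriptional corepressor and POLR2A the largest subunit of RNA polymerase II. TLE1 averaged 19.6 ± 0.255 FPKM in knockdown cells and 15.1 ± 0.307 FPKM in control cells, and POLR2A 31.2 ± 0.220 FPKM in knockdown cells and 24.2 ± 0.208 FPKM in control cells.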

How the data were processed

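Per the labels' protocols, TRIzol was used to extract total RNA and a TruSeq RNA kit to make libraries, of which there were 3 knockdown and 3 control libraries of HaCaT cells. The authors deposited FPKM values for 12829 genes. The aligner HISAT2 2.2.1 and the build GRCh38 are named, per the submitters' processing notes. How reads were counted, on which annotation and whether by strand, is not given in the sources used here. FPKM is relative to the library total, so abundant transcripts shift all others.

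Whole reads were recovered from the steps of the FPKM values for 100% of genes (tolerance 0.004 reads), apart from divisors common to all libraries. They gave depths, and an alternative test with voom. On them limma called 3425 genes higher and 3184 lower. The main test used log2(FPKM + 1) in limma 3.58.1 (R 4.3.3), for genes averaging 0.5 FPKM or more, with a mean-variance trend, two-sided, adjusted by Benjamini and Hochberg over 11214 genes. It called 3313 genes higher and 3121 lower (51.5% of calls higher). With each library rescaled to a common FPKM sum the counts were 4864 and 1838 (72.6% higher) and the median change of all genes was 0.14. The labels speak of biological replicates but not of separate cultures, so that p-values reflect the spread among these 6 libraries alone, and that spread may be technical. Lengths and positions came from GENCODE v29, which matched 12818 genes.

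The 9 genes and the partner lists were chosen with earlier results of these data known. Named were all 9 genes, the up to 3 called genes with the largest absolute change in each list, IQGAP2, and the 5 nearest profiles. KRT5, KRT14, ITGA3, ITGB1, BCAM, TP63, FOSL1, JUNB, DSG3, DSP, and list members given only by their call, were named after their values were seen. The calls of FOSL1 and JUNB under the alternatives are not given here. Genes of the lists that were not in the table are not analysed here, and a further gene of the lists is not reported here. Alternatives varied the pseudocount, filter, scaling, length and GC trends, replicate block, variance trend and test, and left out each library in turn.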

Additional observations from a re-analysis of the deposited data

How the results depend on the processing

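COL17A1, ITGA6, PLEC, LAMA3 and LAMB3 kept their direction and call under all 18 alternatives, with changes of 0.99 to 1.22, 0.78 to 1.05, 0.54 to 0.88, 0.48 to 0.81 and 0.29 to 0.56. DST fell to 0.11 (adjusted p = 0.134) with the length trend removed and to 0.072 (0.318) with length and GC trends removed. CD151 passed as lower, giving 1 lower gene among the 9, with a filter of at least 5 FPKM (-0.13), median ratio scaling (-0.15), the replicate block (-0.13), voom (-0.14) and without control replicate 2; its change was 0.031 with a common FPKM sum and 0.038 with length and GC trends removed. Leaving out each library in turn gave 6 higher and 0 to 1 lower genes, with -0.17 to -0.092 for CD151 and -0.028 to 0.0014 for ITGB4. ITGB4 was at 0.16 with a common FPKM sum, 0.061 with quantile normalization and 0.091 with length and GC trends removed. COL7A1 was at 0.20 with a common sum and -0.10 with the length trend removed. Beyond the scaling and the length trend, which move every gene by construction, the cause was not tested. The labels do not say that the replicate numbers pair the samples. After removal of the group means, the correlations of same-numbered libraries were -0.104, -0.0552 and 0.0561 over 6842 genes. With 3 libraries per group these values cannot settle whether the numbers pair the samples. With the replicate block 3167 genes were higher and 3024 lower, and among the 9 genes only the call of CD151 changed. The partner genes named by the rule kept direction and call under every alternative in which they were tested; of those named after their values were seen, KRT5, DSG3, DSP and CD82 kept their call under 18 of 18, and BCAM (11), EVPL (17), ITGA3 (16), ITGB1 (15), KRT14 (15) and TP63 (17) did not.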

Other observations

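LUM, a proteoglycan of connective tissue and a fibroblast marker, was present at a low level and differed between the groups. It had 0.403, 0.266 and 0.134 FPKM in knockdown libraries 1, 2 and 3, against 2.55, 2.2 and 1.86 FPKM in control libraries 1, 2 and 3. DCN, a related proteoglycan, had 0.0594, 0.0349 and 0.0333 FPKM in the knockdown libraries, against 0.162, 0.262 and 0.198 FPKM in the control libraries. For both genes every knockdown library was below every control library. The log2 change of LUM was -1.34 (limma adjusted p = 6.4e-06); DCN lay below the filter on low values and was not tested. COL1A1, the third fibroblast marker of 7 listed that was in the table, did not share this pattern: it averaged 1.44 ± 0.178 FPKM in the knockdown and 1.24 ± 0.159 FPKM in the control libraries (SD, n = 3 each), and was not called (0.13, limma adjusted p = 0.237). The sum of the 3, in which LUM weighs most in the controls, was 1.56 to 1.91 FPKM in knockdown and 3.46 to 3.79 FPKM in control libraries. The part of these transcripts in the changes of the hemidesmosome genes was not tested.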
